A study of Rattus norvegicus with 16 samples.

Results

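The Fos and Jun families are the genes that encode the core subunits of the transcription factor AP-1, and they were followed here in rat retina and pineal gland. All probe sets annotated to Fos, Fosl1, Fosl2, Jun, Junb or Jund were taken. These were 13 of the 8799 probe sets on each array, for 6 of 4736 named genes. Fos had 3 probe sets, Fosl1 had 1, Fosl2 had 2, Jun had 4, Junb had 2 and Jund had 1. Total RNA was measured on 16 Affymetrix arrays, 4 of pineal gland and 12 of retina. Each array is titled with hour 12 or hour 6 of circadian time (CT) or Zeitgeber time (ZT). The pineal gland has 1 array for each of CT12, CT6, ZT12 and ZT6, and the retina has 3 for each. By convention ZT is timed from lights on and CT from the animal's own clock in constant conditions, but the labels describe neither the lighting nor the strain, age or sex of the rats. The labels also do not say whether the numbered retina arrays were made from different animals, and p-values then reflect only how far these arrays vary, which may be technical.

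AP-1 is a dimer of basic leucine zipper proteins. Fos family proteins bind DNA only with a partner, usually from the Jun family, while Jun family proteins can also pair with each other. Fos and Junb are classic immediate early genes, which neurons switch on within minutes of a stimulus and switch off soon after. In the retina Fos is known for changing with light and with time of day, and in the rat pineal gland Fos family genes are known for responding to the nightly noradrenaline signal.

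Values are the deposited intensities, which measure the brightness of a probe set, or log2 of the intensity plus 16 after quantile normalization. Probe sets whose mean log2 value reached the 40th percentile were tested, 5244 of 8740 without controls. Of the 13 family probe sets, 8 passed in the retina: all 3 of Fos, both of Junb, 2 of Jun and 1 of Fosl2. Fosl1, Jund, 2 Jun probe sets and 1 Fosl2 probe set were too dim, and their differences come from the same model without this filter. Levels are compared within a probe set only, because probe sets differ in brightness for reasons other than abundance.

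One retina array stood apart. Its median rank correlation with the other retina arrays was 0.837 for CT12 array 1, against 0.944 to 0.962 for the other 11. The mean log2 level of 6 rod genes was 11.48 on that array and 15.12 to 16.03 on the other 11. The mean log2 level of 13 lens genes was 15.14 to 16.94 at CT12, 11.08 to 14.93 at CT6, 13.97 to 15.78 at ZT12 and 11.30 to 14.52 at ZT6, so it was highest at CT12. The mean log2 level of 5 blood genes was 12.32 to 13.02 at CT12, 11.81 to 12.97 at CT6, 11.32 to 11.82 at ZT12 and 11.83 to 12.29 at ZT6, so ZT12 was below ZT6 and CT12 without overlap. That of 6 ganglion cell genes was 9.36 to 12.67 at CT12 and 12.84 to 12.94 at ZT12. The part of blood and ganglion cell RNA in the results was not tested. The titles' tissue fits the pineal enzyme genes: Tph1, which encodes the enzyme for the first step of melatonin synthesis, had intensities of 18770 to 27410 on the pineal arrays and 13.71 to 246.6 on the retina arrays. The pineal ZT12 array has hour 12 in its title and 6.0 h in its description, and is placed by its title. All 4 pineal arrays carry a source name of retina, so their tissue is taken from the titles. The retina arrays numbered 3 and the pineal ZT12 array share a source name that differs from that of the others.

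Fos is the founding member of its family and the member that changed in the retina. At ZT12 its brightest probe set, X06769cds_g_at, had log2 levels of 13.12, 13.31 and 13.28, against 11.26, 11.19 and 11.60 at ZT6. The ZT12 arrays were all above the ZT6 arrays, with a gap wider than the range of either group. The difference was 1.89 ± 0.18 (log2, SE, n = 3 each), a 3.70-fold rise with an adjusted p of 0.00283 (limma, Benjamini-Hochberg over 5244 probe sets). The call was lost without the 4 arrays numbered 3, where the difference was 2.01 with a limma adjusted p of 0.0689. In intensities the 3 ZT12 arrays lay between 9047 and 10380, and the 3 ZT6 arrays between 2347 and 3208. In whole tissue, more cells with Fos RNA and more Fos RNA per cell cannot be told apart.

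The second Fos probe set, X06769cds_at, shares its source sequence with the first by name, so both read the same transcript and are not independent. It had log2 levels of 11.27, 11.28 and 11.48 at ZT12, against 8.38, 7.38 and 7.94 at ZT6, again without overlap. Its rise of 3.44 ± 0.55 (log2, SE, n = 3 each) had a limma adjusted p of 0.0459, close to the threshold of 0.05. X06769cds_at was tested only because it is high at ZT12: over the other 9 arrays its mean was 8.56, below the filter limit of 8.88. Without the filter its adjusted p was 0.121, and the call held under 12 of 23 alternatives. The third, X03347cds_g_at, had log2 levels of 12.42, 12.87 and 12.82 at ZT12, against 10.16, 9.80 and 9.80 at ZT6. Its groups did not overlap either, but its difference of 2.78 ± 0.54 (log2, SE, n = 3 each) did not pass, with a limma adjusted p of 0.0858. The spread that this fit shares over 4 groups includes CT12 array 1, on which X03347cds_g_at read 8.76 while the other CT12 arrays read 11.18 and 11.26. Without that array the third probe set passed at the same difference, with a limma adjusted p of 0.000101.

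Junb, an immediate early Jun family member that often acts as a weaker activator than Jun, also stood higher at ZT12. Its probe set X54686cds_at had log2 levels of 11.22, 11.83 and 11.65 at ZT12, against 10.01, 10.62 and 10.02 at ZT6. Its other probe set, rc_AA891041_at, had 11.37, 11.72 and 12.10 at ZT12, against 9.43, 10.67 and 9.87 at ZT6. In both, every ZT12 array was above every ZT6 array. Neither difference passed over all 12 arrays: 1.35 ± 0.41 for X54686cds_at (log2, SE, limma adjusted p 0.31) and 1.74 ± 0.32 for rc_AA891041_at (log2, SE, limma adjusted p 0.0677). Without CT12 array 1 both passed, with differences of 1.35 ± 0.23 and 1.74 ± 0.32 and limma adjusted p of 0.025 and 0.0322.

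The set of rat promoter sequences used here, taken from RefSeq, held 4 of the 6 genes: Fosl1, Fosl2, Junb and Jund. The 250 bases before the annotated start of Junb and Jund (build GRCr8) are shown. They were chosen because Junb, like Fos, stood higher at ZT12 on every array, while the Jund probe set was too dim to be tested. That describes the probe set and not the amount of Jund RNA. The Junb stretch is chr19:40080876-40081125 on the plus strand and the Jund stretch chr16:18769772-18770021 on the minus strand, both written 5′ to 3′ along the gene. Capitals mark matches on either strand to the cyclic AMP response element TGACGTCA, its part TGACG, the CCAAT box and the letters TATAA.
Junb: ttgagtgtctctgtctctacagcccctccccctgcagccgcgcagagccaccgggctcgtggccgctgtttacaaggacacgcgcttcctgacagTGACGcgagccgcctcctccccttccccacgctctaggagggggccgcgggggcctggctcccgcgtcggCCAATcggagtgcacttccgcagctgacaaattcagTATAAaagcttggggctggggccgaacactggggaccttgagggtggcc
Jund: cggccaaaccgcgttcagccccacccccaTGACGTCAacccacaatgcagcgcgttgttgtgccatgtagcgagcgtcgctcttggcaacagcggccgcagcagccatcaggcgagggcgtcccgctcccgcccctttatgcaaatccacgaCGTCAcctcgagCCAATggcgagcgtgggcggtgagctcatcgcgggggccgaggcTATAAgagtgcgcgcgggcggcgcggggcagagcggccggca

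Jund held the full TGACGTCA, which 1.59% of 33469 rat promoter stretches of the same length hold, while Junb held 1 copy of the part TGACG, which 18.2% hold. The full element contains that part on both strands, so the 2 searches overlap. Both genes had 1 CCAAT, found in 34% of all stretches, and 1 TATAA, found in 24%. Jund also had 3 copies of the GC box GGGCGG, Fosl1 and Fosl2 had 1 each and Junb had 0, and 30.5% of all stretches hold it. None of the 4 stretches held the AP-1 site TGAGTCA (4.05% of all), the E-box CACGTG (5.59%) or a CArG box (1.5%). A match describes the letters and says nothing of binding.

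Jun, the family's main partner of Fos, lay the other way by level, and no Jun probe set passed. The brighter probe set rc_AI175959_at had log2 levels of 10.71, 10.58 and 10.77 at ZT12, against 11.09, 10.94 and 11.87 at ZT6. The probe set X17163cds_s_at had 9.84, 9.80 and 9.41 at ZT12, against 10.03, 10.49 and 11.09 at ZT6. In both, every ZT12 array was below every ZT6 array. The differences were -0.61 ± 0.44 (log2, SE, limma adjusted p 0.808) and -0.86 ± 0.67 (limma adjusted p 0.833). ZT6 array 3 was the highest of its group in both, and without the arrays numbered 3 the differences were -0.37 and -0.45.

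Fosl2, a Fos family member that lacks the strong activation domain of Fos, did not pass. Its probe set U18982_s_at had log2 levels of 8.98 to 9.06 at ZT12, against 9.37, 9.49 and 8.80 at ZT6. The groups overlapped, and the difference was -0.21 with a 95% interval of -0.83 to 0.41. The dim Fosl2 probe set rc_AI230842_at differed by 1.03 ± 0.42 (log2, SE), with a limma adjusted p of 0.645 without the filter. The other dim probe sets, those of Fosl1, Jund and 2 of Jun, differed by -0.28 to 0.15 between ZT12 and ZT6.

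Counted over the family, 2 of 8 tested probe sets rose at ZT12, both of Fos, and 0 fell; among all 5244 probe sets 0.267% rose. The count includes X06769cds_at, which reached the filter through ZT12, and it was 1 without the filter. All ZT12 arrays were above all ZT6 arrays in 5 of the 8, against 10.3% of all tested probe sets, and below them in 2 of the 8, against 15.1%. The median difference of the 8 was 1.54 log2 units, beside -0.02 over all probe sets tested. The 3 Fos probe sets and the 2 Junb probe sets made up the higher 5, and both Jun probe sets the lower 2. The higher 5 and the median thus also include X06769cds_at. The count of calls was 5 without CT12 array 1, where 1.51% of all probe sets were called in either direction. In that setting Jun rc_AA945867_at also reached the filter, and its difference of 0.04 was not called.

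**Figure D1:**
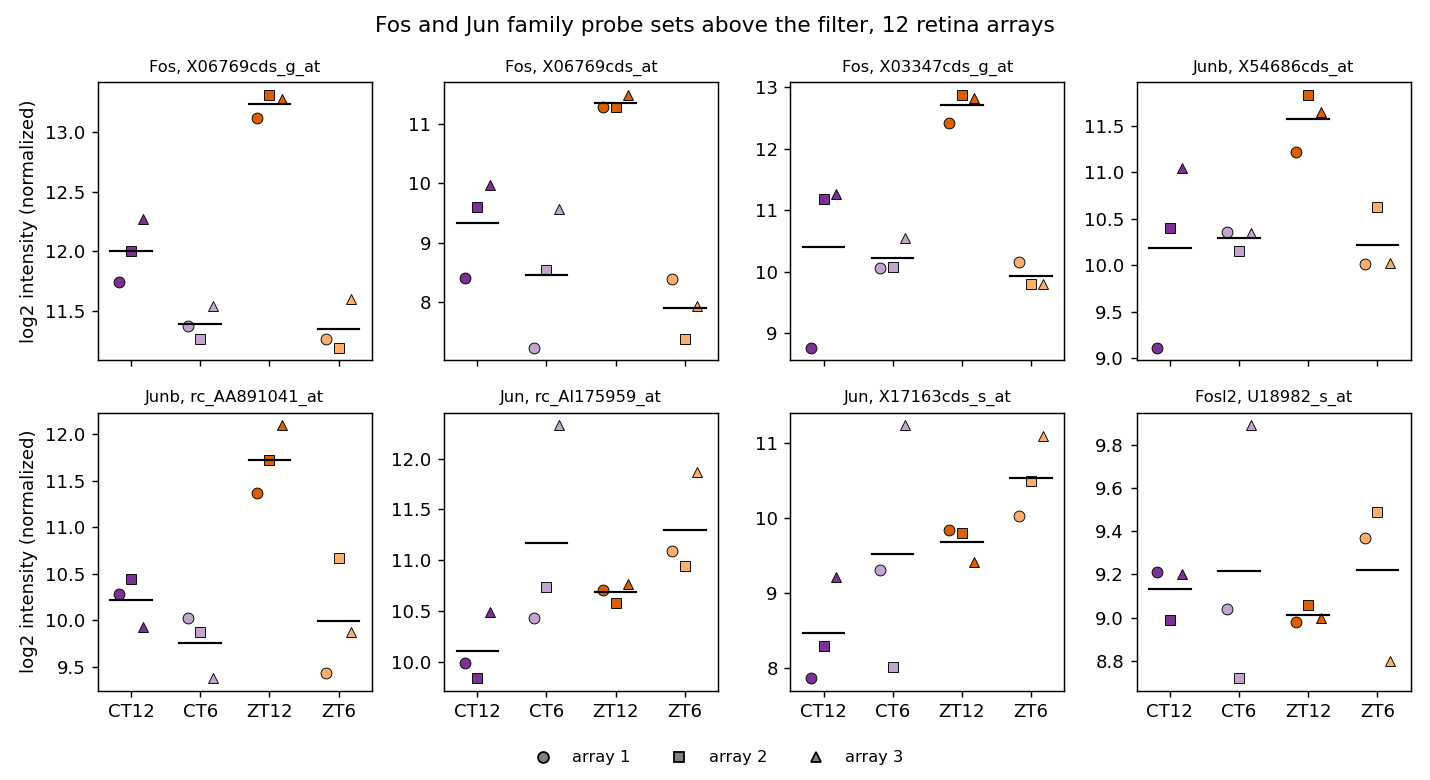
Normalized log2 intensity of the 8 family probe sets tested in the retina (vertical axes, 1 panel per probe set, each with its own scale) in the 4 conditions (horizontal axis). Points are single arrays, with the shape giving the array number, and black lines are group means. Fos and Junb were highest at ZT12, and CT12 array 1 was low for X03347cds_g_at and X54686cds_at.

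Under CT the hours were closer. At CT12 Fos X06769cds_g_at had log2 levels of 11.74, 12.00 and 12.27, against 11.37, 11.26 and 11.54 at CT6. The CT12 arrays were all above the CT6 arrays, by a smaller gap than under ZT. The difference of 0.61 ± 0.18 (log2, SE, n = 3 each) did not pass, with a limma adjusted p of 0.126. X06769cds_at had log2 levels of 8.41, 9.59 and 9.96 at CT12, against 7.23, 8.54 and 9.57 at CT6, with overlap. X03347cds_g_at had log2 levels of 8.76, 11.18 and 11.26 at CT12, against 10.05, 10.07 and 10.54 at CT6. Here CT12 array 1 was the lowest and the other CT12 arrays the highest. The difference of X03347cds_g_at was 0.18 ± 0.54 (log2, SE) over all arrays and 1.00 ± 0.20 without CT12 array 1, with limma adjusted p of 0.827 and 0.0797.

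The Junb probe set X54686cds_at had log2 levels of 9.11, 10.40 and 11.04 at CT12, against 10.36, 10.15 and 10.35 at CT6. CT12 array 1 was lowest of the 6, and the difference was -0.11 ± 0.41 with it and 0.43 ± 0.26 without it (log2, SE), neither of which passed. The Junb probe set rc_AA891041_at had 10.28, 10.45 and 9.93 at CT12, against 10.03, 9.87 and 9.38 at CT6. The groups overlapped slightly, and the difference of 0.46 ± 0.32 (log2, SE) had a limma adjusted p of 0.322.

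Jun was lower at CT12 by value without passing. The probe set rc_AI175959_at had log2 levels of 9.99, 9.84 and 10.49 at CT12, against 10.43, 10.74 and 12.33 at CT6, with a slight overlap. X17163cds_s_at had 7.87, 8.30 and 9.22 at CT12, against 9.31, 8.02 and 11.24 at CT6, with overlap. Both differed by -1.06 log2 units, with limma adjusted p of 0.163 and 0.28. CT6 array 3 was highest in both, and without the arrays numbered 3 the differences were -0.67 and -0.59. With the lens level as a covariate they were -0.58 and -0.05. CT6 array 3 also had the lowest lens level, 11.08, and the part of lens RNA in these values was not tested beyond that covariate.

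Fosl2 U18982_s_at had log2 levels of 9.21, 8.99 and 9.20 at CT12, against 9.04, 8.72 and 9.89 at CT6, with overlap and a difference of -0.08 ± 0.28 (SE). Jund, a Jun family member that most cells keep at a steady level, had a probe set near the bottom of the scale. Its log2 levels were 6.24, 5.71 and 6.19 at CT12, against 7.25, 7.41 and 8.71 at CT6. The CT12 arrays were all below the CT6 arrays, as in 15.9% of all probe sets tested, and the difference was -1.74 ± 0.37 (log2, SE). It stood below the 40th percentile in mean level, and without the filter its limma adjusted p was 0.148, so it was not called.

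Of the 8 tested probe sets, 0 passed between CT12 and CT6 in limma and 2 had an unadjusted p under 0.05. Among all 5244, 0.0381% passed and 27.4% had an unadjusted p under 0.05, so the members' share was near that of all probe sets. The CT12 arrays were all above the CT6 arrays in 1 of the 8, Fos X06769cds_g_at, against 10.6% of all probe sets tested. The median difference of the 8 was 0.05 log2 units, beside -0.06 over all probe sets tested.

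At hour 6 no member passed between the regimes. Of the 8 tested probe sets, 0 passed between CT6 and ZT6 in limma and 0 had an unadjusted p under 0.05, and 0% of all probe sets passed, with 5.07% at an unadjusted p under 0.05. The dim Jund was higher at CT6 on every array, with log2 levels of 7.25, 7.41 and 8.71 at CT6, against 6.99, 6.62 and 6.50 at ZT6. That order without overlap held for 7.95% of all probe sets tested. The Jund difference was 1.09 ± 0.37 (log2, SE), with a limma adjusted p of 0.999 without the filter. Fos X06769cds_g_at differed by 0.04 log2 units, with a 95% interval of -0.35 to 0.43. For X54686cds_at of Junb the difference was 0.07 log2 units, with an interval of -0.83 to 0.97. The widest interval was that of Jun X17163cds_s_at, -2.50 to 0.46, which still holds a difference of several fold.

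At hour 12 Fos was lower under CT. The log2 levels of X06769cds_g_at at CT12 (11.74, 12.00 and 12.27) were all below those at ZT12 (13.12, 13.31 and 13.28). The difference was -1.24 ± 0.18 (log2, SE, n = 3 each), a 2.36-fold fall with a limma adjusted p of 0.0245. The other Fos probe sets differed by -2.02 ± 0.55 and -2.30 ± 0.54, with limma adjusted p of 0.108 and 0.0937. X03347cds_g_at passed without CT12 array 1, at -1.47 ± 0.20 with a limma adjusted p of 0.0191. The call of X06769cds_g_at held without that array (-1.09, limma adjusted p 0.0203), but was lost when any single ZT12 array or CT6 array 1 was left out, with values of -1.20 to -1.29 and adjusted p of 0.0549 to 0.144. With the lens level as a covariate X06769cds_g_at differed by -1.18, with a limma adjusted p of 0.0726.

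Junb was also lower at CT12 by value. Both probe sets had all CT12 arrays below all ZT12 arrays, with differences of -1.51 ± 0.32 for rc_AA891041_at and -1.38 ± 0.41 for X54686cds_at (log2, SE). Their limma adjusted p were 0.0736 and 0.116, so neither passed. Both Jun probe sets had the same order without overlap, with differences of -0.58 ± 0.44 and -1.22 ± 0.67. Fosl2 U18982_s_at was the exception, with a difference of 0.13 ± 0.28 and overlapping groups.

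In all, 1 of 8 tested probe sets fell at CT12 against ZT12, beside 0.496% of all probe sets tested. In 7 of the 8 every CT12 array lay below every ZT12 array, against 16.1% of all. These are probe sets of Fos, Jun and Junb, and they include X06769cds_at, which reached the filter only through its level at ZT12. The median difference was -1.31 log2 units for the 8, X06769cds_at included, and -0.02 for all probe sets tested. The ZT12 arrays enter this comparison and that of ZT12 with ZT6, so these values are not independent of that comparison.

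Averaged over both regimes, Fos X06769cds_g_at rose at hour 12 by 1.25 ± 0.12 (log2, SE, n = 6 each), with a limma adjusted p of 0.00538. All 6 arrays of hour 12 were above all 6 of hour 6. The call was lost with the lens level as a covariate (1.32, limma adjusted p 0.0569) and without the arrays numbered 3 (1.28, 0.144). It was the 1 family probe set of 8 called, while 0.114% of all probe sets rose, and the 1 without overlap, against 0.42% of all. X06769cds_at followed at 2.16 ± 0.39 with a limma adjusted p of 0.0628, and Junb rc_AA891041_at at 1.10 ± 0.23 with 0.107. Without CT12 array 1, where Jun rc_AA945867_at was tested as well, 4 were called: the 3 of Fos and X54686cds_at of Junb. In that setting 1.3% of all probe sets were called. Averaged over both hours, 0 of 8 passed between CT and ZT in limma, 5 had an unadjusted p under 0.05, against 11.8% of all probe sets, and 0% of all probe sets passed.

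The test of whether the hour difference itself depends on regime called 0 of the 8 in limma, although 5 had an unadjusted p under 0.05, and it called 0.0191% of all probe sets. At an unadjusted p under 0.05 the share of all probe sets was 16%. The 5 include Fos X06769cds_at, which reached the filter only through its level at ZT12. The hour difference of Fos X06769cds_g_at was smaller under CT than under ZT by value, by -1.28 ± 0.25 (log2, SE), with a limma adjusted p of 0.114. The values for the other Fos probe sets were -2.57 ± 0.78 and -2.60 ± 0.76, and for Junb -1.28 ± 0.45 and -1.45 ± 0.57. A weaker hour difference of Fos or Junb under CT was therefore not established.

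The means put the 4 conditions in the same order for all 3 Fos probe sets. X06769cds_g_at averaged 12.00 ± 0.27 at CT12, 11.39 ± 0.14 at CT6, 13.24 ± 0.10 at ZT12 and 11.35 ± 0.22 at ZT6 (log2, SD, n = 3 each). ZT12 was highest, then CT12, CT6 and ZT6. Of the neighbours in that order, ZT12 and CT12 differed beyond their spread, while CT12 and CT6, and CT6 and ZT6, did not pass the test. Junb X54686cds_at averaged 10.18 ± 0.98 at CT12, 10.29 ± 0.12 at CT6, 11.57 ± 0.32 at ZT12 and 10.22 ± 0.35 at ZT6 (log2, SD, n = 3 each), with the 3 groups other than ZT12 within their spread of each other. Jun rc_AI175959_at averaged 10.11 ± 0.34 at CT12, 11.17 ± 1.02 at CT6, 10.69 ± 0.10 at ZT12 and 11.30 ± 0.50 at ZT6, so its mean was lower at hour 12 under both regimes. Of its neighbouring groups, ZT6 and CT6, and ZT12 and CT12, did not pass the test, and CT6 was not tested against ZT12.

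**Figure D2:**
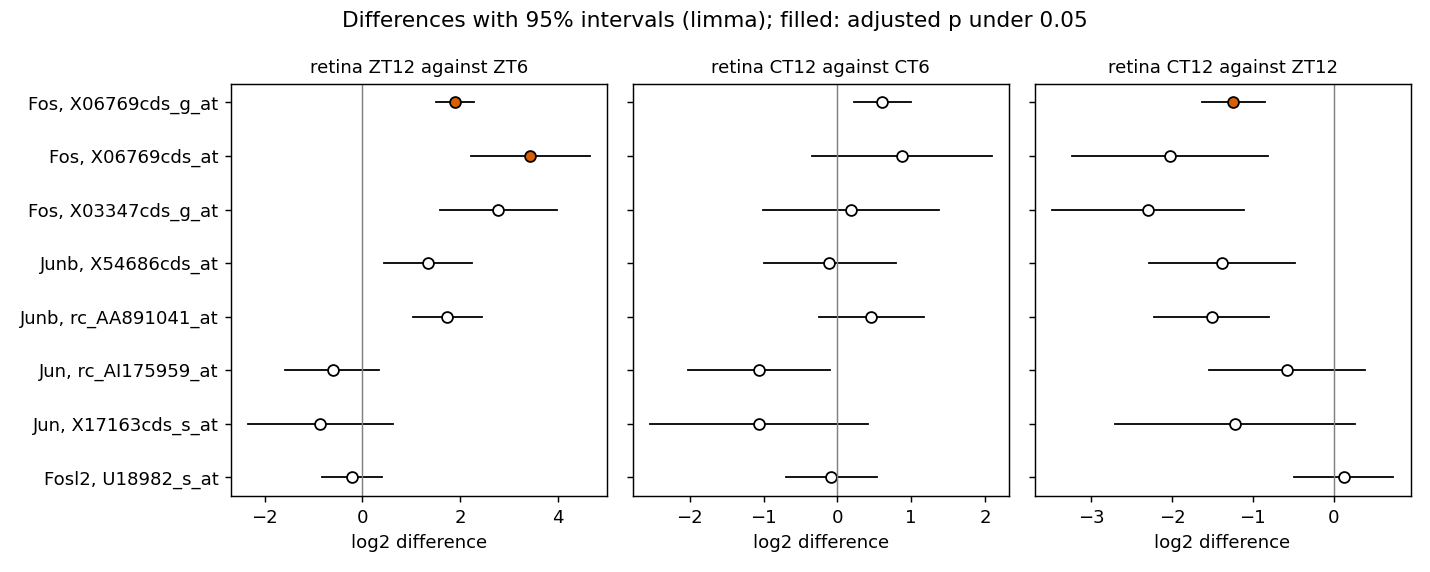
Differences in log2 intensity (horizontal axes) for the 8 tested family probe sets (rows) in 3 retina comparisons (panels, each with its own scale). Points are limma estimates, lines are 95% intervals, and filled points had an adjusted p under 0.05. Fos X06769cds_g_at and X06769cds_at passed for ZT12 against ZT6, and X06769cds_g_at passed for CT12 against ZT12.

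The probe sets of 1 gene moved together across the retina arrays for Fos and Jun. Over 12 arrays, which share their groups and normalization, Pearson's r was 0.90 to 0.93 among the Fos probe sets, 0.85 between the Jun probe sets and 0.73 between the Junb probe sets. Fos X06769cds_g_at and Junb X54686cds_at had r of 0.79 over 12 arrays and 0.91 without CT12 array 1. After the group means were removed it was 0.60. The other Junb probe set, rc_AA891041_at, had r of 0.85 with the same Fos probe set over 12 arrays and -0.32 after the group means were removed, and the Junb probe sets had 0.15 with each other within groups. The likeness of Fos and Junb within groups was therefore not shared by both Junb probe sets. Fos X06769cds_g_at and Jun rc_AI175959_at had r of -0.24 over all arrays and 0.64 after the group means were removed.

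Among 3172 other genes, the 5 most like Fos X06769cds_g_at over the 12 retina arrays by Pearson's r were Egr1 (0.929), Slc25a30 (0.903), Acy1 (0.873), Ak4 (0.860) and Sdc4 (0.856). Egr1 encodes an immediate early zinc finger factor. Without CT12 array 1 they were Egr1 (0.929), Slc25a30 (0.917), Junb (0.915), Tuba4a (0.903) and Nr4a1 (0.897). By Spearman's rho Map2k1 came first (0.839) and Egr1 stood in the third place (0.811), and without CT12 array 1 Fhip2a came first (0.927) and Egr1 was not among the first 5. For Junb X54686cds_at the nearest were Dusp5 (0.953), a phosphatase of the kinase ERK, then Plekha8 (0.949), Ptpn1 (0.938), Nr4a1 (0.917) and Crot (0.901). For Jun rc_AI175959_at they were Cebpg (0.927), Galt (0.901), Pacs1 (0.885), Camk1g (0.875) and Ddit3 (0.874). For Fosl2 U18982_s_at they were Sgk1 (0.848), Rraga (0.828), Ndufs7 (0.807), Ppp1r12a (0.779) and Coq3 (0.769). These are descriptions over few arrays, and arrays of a group share its condition.

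Genes around AP-1 were read from 4 lists. Of the other immediate early genes, 15 of 22 on the array were tested, and 1 rose at ZT12 against ZT6, beside 0.267% of all probe sets. It was Egr1, which rose by 5.68 ± 0.69 (log2, SE) with a limma adjusted p of 0.0109. Cdkn1a, a cell cycle inhibitor, had the next smallest p, at 1.28 ± 0.28 with an adjusted p of 0.114, and the list median was 0.17 beside -0.02 for all probe sets tested. Without CT12 array 1 the count was 3: Egr1, the orphan nuclear receptor gene Nr4a1 at 2.33 ± 0.19, and Gadd45a, a stress response gene, at 0.89 ± 0.12. In that setting 1.51% of all probe sets were called in either direction.

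Of 12 tested upstream genes, which are kinases, phosphatases and serum response genes that control AP-1, 0 passed at ZT12 against ZT6 in limma and 4 had an unadjusted p under 0.05, as did 8.62% of all probe sets. The smallest p were those of the kinase genes Map2k1 (0.49 ± 0.12) and Mapk7 (1.39 ± 0.39), with limma adjusted p of 0.15 and 0.276. Both rose without CT12 array 1, where 1.51% of all probe sets were called, with limma adjusted p of 0.0473 and 0.0271. Of 11 other leucine zipper genes that can pair with AP-1 subunits, 0 passed in limma and 1 had an unadjusted p under 0.05. Ddit3 (-1.21 ± 0.42) and Atf3 (-1.57 ± 0.72) had the smallest p, and the list median was 0.01. Of 18 tested AP-1 target genes, 0 passed in limma and 0 had an unadjusted p under 0.05, with the smallest p for Cd44, a hyaluronan receptor gene (0.56 ± 0.37), and Lum, a matrix gene (0.94 ± 0.76), and the list median was 0.24. For CT12 against ZT12, 1 gene of the 4 lists passed, Cdkn1a, which fell by 1.57 ± 0.28 on the log2 scale (SE, limma adjusted p 0.044). Of all probe sets tested, 0.496% fell. Without CT12 array 1 Cdkn1a differed by -1.64 ± 0.31 and did not pass, with an adjusted p of 0.0505. For CT12 against CT6, 0 genes of these lists passed in limma, while 6 immediate early, 1 upstream, 5 partner and 6 target genes had an unadjusted p under 0.05, beside 27.4% of all probe sets. Without CT12 array 1 these counts were 6, 1, 1 and 2. There Nr4a1 passed at 1.59 ± 0.21 with a limma adjusted p of 0.0285, beside 0.133% of all probe sets. For CT6 against ZT6, 0 passed as well, with 1, 3, 2 and 0 in the same order.

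Between the tissues all 8 tested family probe sets were called, but so were most probe sets: 39.4% of all 5244 were higher in pineal and 36.4% lower. Of the 8, 3 were higher in pineal, 2 of Jun and 1 of Fosl2, and 5 were lower, 2 of Fos, 2 of Junb and 1 of Jun. The median difference of the 8 was -0.92 log2 units, beside 0.09 over all probe sets tested. With all 16 arrays the 8 that reached the filter held Jun rc_AA945867_at in place of Fos X06769cds_at. Of the 8, 4 had a mean below the filter limit in one tissue and were tested through the other, so the counts of calls are no support for a family difference. The model held condition as a covariate, since each condition has 1 pineal array.

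Fos was lower in pineal. X03347cds_g_at had intensities of 194.2 to 391.1 on the pineal arrays and 385.8 to 7603 on the retina arrays, which touch only at CT12 array 1. The difference was -2.14 ± 0.53 (log2, SE, 4 against 12 arrays), with a limma adjusted p of 0.00213, and of 0.00328 without the filter. X03347cds_g_at reached the filter through retina, since its pineal mean of 8.60 was below the limit of 8.82. X06769cds_g_at had intensities of 1685 to 2607 in pineal and 2347 to 10380 in retina, with overlap at the ZT6 and CT6 retina arrays. It fell by 0.73 ± 0.28 on the log2 scale in pineal, with a limma adjusted p of 0.0313. Leaving out the pineal ZT12 array, whose labels conflict, brought this to -0.23 with a limma adjusted p of 0.307. With condition as a covariate, the ZT12 retina arrays then no longer enter the tissue difference. Leaving out the ZT12 condition in both tissues gave -0.24 with a limma adjusted p of 0.358. The call therefore depended on the ZT12 comparison, and not on the pineal array alone. Without the pineal CT12 array it was -0.65 with an adjusted p of 0.0921.

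Junb was lower in pineal in both probe sets. X54686cds_at had intensities of 152.1 to 531.3 in pineal and 483.7 to 3707 in retina, and rc_AA891041_at had 238.4 to 872.6 in pineal and 627 to 4545 in retina. Both ranges overlapped a little. The differences were -1.86 ± 0.41 and -1.12 ± 0.25 (log2, SE), with limma adjusted p of 0.000962 and 0.000937. X54686cds_at reached the filter through retina, since its pineal mean of 8.61 was below the limit of 8.82. Without the filter its limma adjusted p was 0.00157.

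The Jun probe sets disagreed. In pineal rc_AA945867_at had intensities of 1012, 2710, 1735 and 3640 at CT12, CT6, ZT12 and ZT6, against 84.24 to 862.5 on the retina arrays. It reached the filter through pineal, since its retina mean of 8.66 was below the limit of 8.82. Every pineal array was above every retina array, which held for 1 of the 8 tested and for 27.2% of all probe sets. Its difference was 2.60 ± 0.37 (log2, SE), with a limma adjusted p of 1.61e-05, and of 3.2e-05 without the filter. The probe set rc_AI175959_at was higher in pineal by 0.92 ± 0.29, with overlap and a limma adjusted p of 0.0106, a call lost on the intensities as deposited or without the ZT12 condition. X17163cds_s_at differed by -2.13 ± 0.55 (log2, SE, limma adjusted p 0.00273), with intensities of 61.42 to 430.7 in pineal and 202 to 2423 in retina. It reached the filter through retina, with a pineal mean of 7.31, and its limma adjusted p was 0.00414 without the filter. The dim probe set rc_AA944014_at differed by 0.37 ± 0.29, and no direction for the Jun gene follows from these 4.

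Fosl1, a Fos family member best known from growth factor responses, was too dim for the filter but separated the tissues. Its intensities were 208.8, 280.9, 172.3 and 361.6 at CT12, CT6, ZT12 and ZT6 in pineal, against 56.11 to 138.6 in retina. Every pineal array was above every retina array. The difference was 1.61 ± 0.20 (log2, SE), with a limma adjusted p of 9.77e-06 without the filter. Fosl2 U18982_s_at was higher in pineal by 0.51 ± 0.22 (limma adjusted p 0.0443). The call was lost under 12 of 24 alternatives, with values of 0.01 to 0.76 and adjusted p up to 0.97. Among these were the setting without the filter (limma adjusted p 0.0622) and those without some single arrays of either tissue. Its dim probe set differed by -0.14 ± 0.27. Jund differed by 0.24 ± 0.24.

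**Figure D3:**
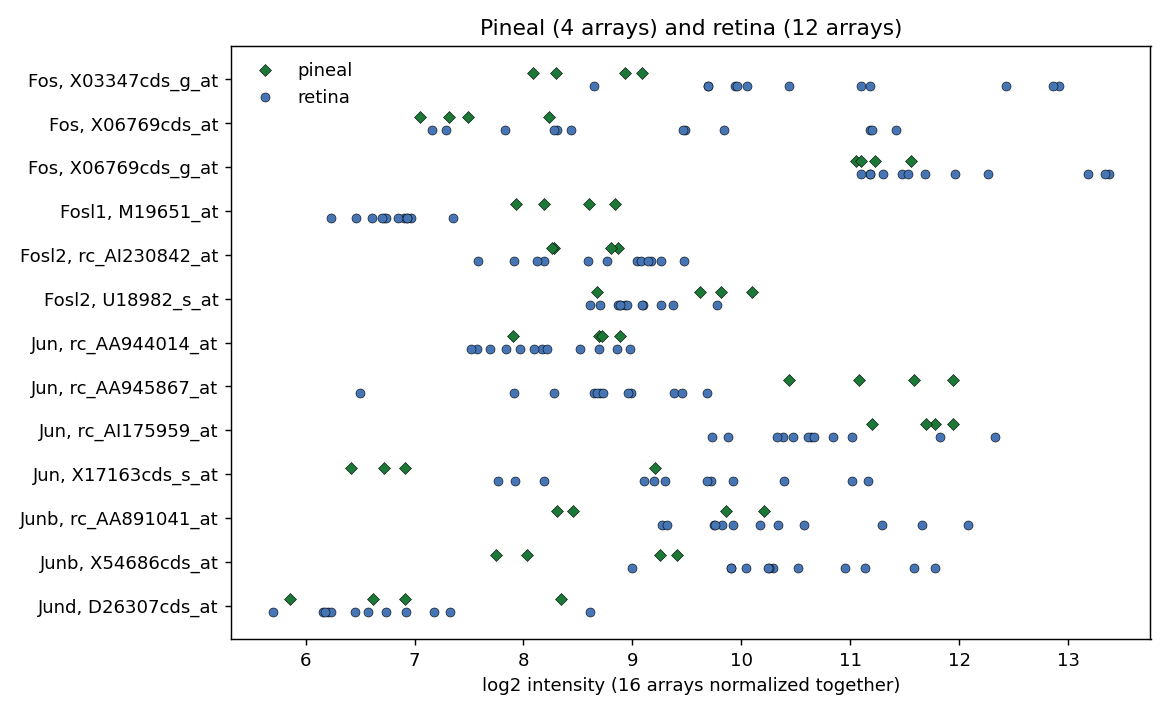
Normalized log2 intensity (horizontal axis, 16 arrays normalized together) of all 13 family probe sets (rows) on the 4 pineal arrays (diamonds, upper of each pair) and the 12 retina arrays (circles). Jun rc_AA945867_at and Fosl1 M19651_at did not overlap between the tissues, while the Jun probe sets lay on different sides.

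The lists moved both ways between tissues. Of 9 tested partner genes, 2 were higher in pineal, Nfe2l2 (2.33 ± 0.15) and Mafk (0.52 ± 0.15), and 2 lower, Atf2 (-3.65 ± 0.37) and Creb1 (-2.49 ± 0.18). Of 12 upstream genes 5 were higher, among them Mapk9 (2.09 ± 0.17), and 5 lower, among them Map3k1 (-4.07 ± 0.35) and Dusp1 (-3.95 ± 0.54). Of 17 immediate early genes 8 were higher, among them Klf10 (2.93 ± 0.21) and Nr4a3 (2.02 ± 0.32), and 5 lower, among them Gadd45a (-2.06 ± 0.28). Of 16 target genes 6 were higher and 7 lower, and the list medians were 0.31, 0.13, 0.90 and 0.18 in that order, beside 0.09 for all probe sets tested. Of all probe sets tested, 39.4% were higher in pineal and 36.4% lower.

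Between hours the pineal gland has 1 array per condition, so its differences have no replicate check and no test. Counted on log2 of the deposited intensity plus 16 over all 13 probe sets, 1 was at least 2-fold higher and 4 at least 2-fold lower at ZT12 than at ZT6. Of all 8740 probe sets, 7.87% were higher and 9.34% lower by that much. At CT12 against CT6, 1 of the 13 was at least 2-fold higher and 4 at least 2-fold lower, beside 8.09% and 7.44% of all. The median difference of the 13 was -0.54 under ZT and -0.40 under CT, beside -0.08 and -0.02 for all probe sets.

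The 2 Junb probe sets went opposite ways in the pineal gland. X54686cds_at had intensities of 152.1 at ZT12 and 531.3 at ZT6, and 186.1 at CT12 and 440.1 at CT6. rc_AA891041_at had 872.6 at ZT12 and 238.4 at ZT6, and 658.9 at CT12 and 252 at CT6. The log2 differences between hour 12 and hour 6 were -1.70 and -1.17 for the first and 1.80 and 1.33 for the second. The same 2 probe sets were both higher at ZT12 in the retina, so no direction for Junb in the pineal gland follows from them.

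The brightest Fos probe set differed by less than 2-fold between hours in pineal. X06769cds_g_at had an intensity of 1790 at ZT12 and 2607 at ZT6, and 1685 at CT12 and 2014 at CT6. The differences of -0.54 and -0.26 log2 units were opposite in sign to those of the retina. X03347cds_g_at was lower at hour 12 as well, with log2 differences of -0.92 and -0.75, and the dim X06769cds_at was higher, at 0.98 and 0.20. Its ZT intensities were 214.8 at ZT12 and 101.2 at ZT6, which is past 2-fold before 16 is added. Jun rc_AA945867_at was 2-fold lower or more at hour 12 under both regimes, with differences of -1.06 and -1.41. Jun X17163cds_s_at differed by -0.47 under ZT and -2.23 under CT. Its intensity was 430.7 at CT6, against 79.37 at CT12, 61.42 at ZT12 and 91.1 at ZT6. Fosl1 was just past 2-fold lower under ZT, at the intensities given for the tissues, and differed by -0.40 under CT. Fosl2 U18982_s_at differed by -1.52 under ZT and 0.15 under CT, and Jund by 0.18 and -2.10.

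**Figure D4:**
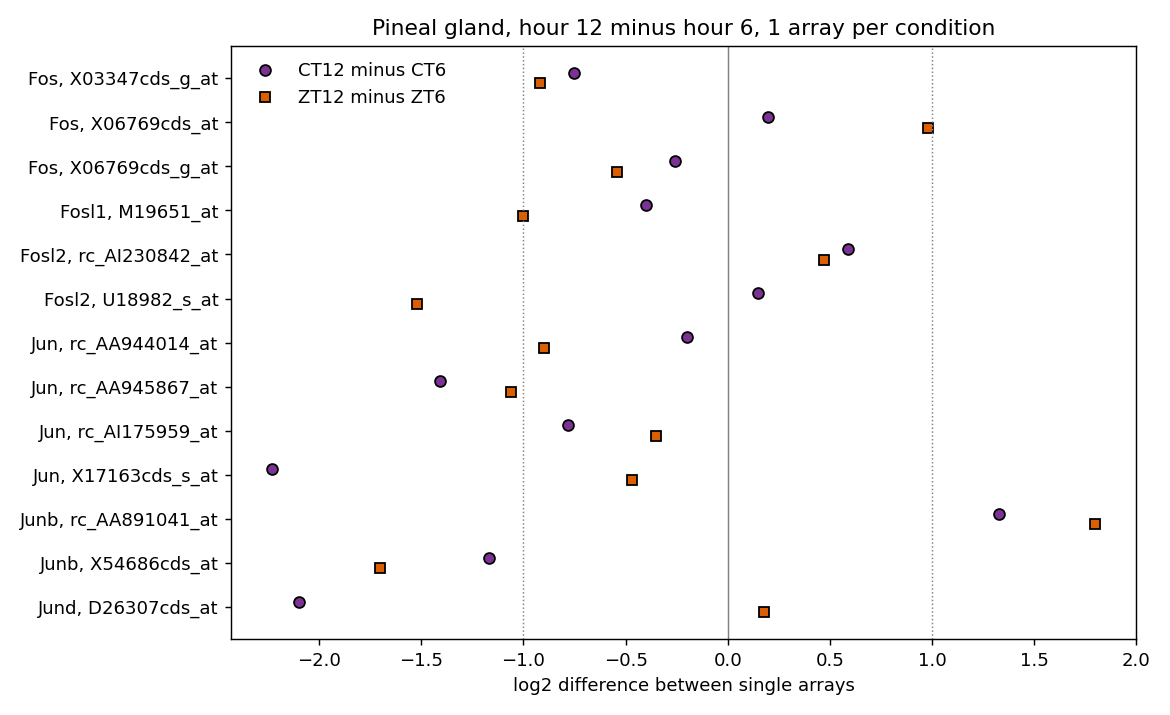
Differences in log2 intensity between hour 12 and hour 6 on single pineal arrays (horizontal axis) for all 13 family probe sets (rows), under CT (circles) and ZT (squares), with dotted lines at 2-fold. The Junb probe sets lay on opposite sides and the Jun probe set rc_AA945867_at was past 2-fold lower under both regimes.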

How the data were processed

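The deposited table holds intensities for 8799 probe sets on 16 arrays, 4 of pineal and 12 of retina. For these intensities the software, background correction and scaling used by the authors is not given in the sources used here. With 2% trimmed at each end, array means lay between 2503 and 2506, and precision is limited by how few arrays there are. After 59 controls were removed, the retina arrays (medians 671.3 to 858.4) were quantile normalized, and all 16 for the tissue comparison, and log2 of the intensity plus 16 was taken. Probe sets under the 40th percentile of mean level were left out, which kept 5244. Differences were fitted with limma 3.58.1 in R 4.3.3 (lmFit, eBayes, two-sided), 1 fit for the 4 retina groups and 1 for tissue with condition as a covariate, with Benjamini-Hochberg adjustment over the 5244 and a threshold of 0.05. The fit was tested on simulated data. Errors on differences are standard errors. Pineal hours were compared as deposited, without a test, at a limit of 2-fold.

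Gene names come from the platform annotation, updated through RefSeq (6985 of 7006 probe sets with 1 symbol matched), and sequences from RefSeq. Named list genes are those that passed, up to 5 per list by p, or otherwise the 2 with the smallest p, on the brightest probe set. In the tissue comparison some of these are not printed. The family and the gene lists were chosen with earlier results of these data known. Alternatives varied the offset, normalization, filter, prior, array weights, replicate block, lens covariate and arrays included. Figures were drawn in Python 3.11.15.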

Additional observations from a re-analysis of the deposited data

Results flagged for a closer look

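With all 16 arrays normalized together, the hour difference of some family probe sets had one sign in pineal and the other in retina, where the arrays of the hours did not overlap. Each of these rests on 1 pineal array per condition, and the difference between tissues was not tested. For Fos X03347cds_g_at the ZT12 minus ZT6 effect was -0.84 log2 units in pineal and 2.93 in retina, a difference of -3.77. For Fos X06769cds_g_at it was -0.45 in pineal and 2.03 in retina, a difference of -2.48. For the same probe set the CT12 minus CT6 effect was -0.18 in pineal and 0.65 in retina, a difference of -0.83. The third Fos probe set, X06769cds_at, was higher at ZT12 than at ZT6 in both tissues. It differed by 0.98 in pineal on deposited intensities and by 3.44 in the retina fit, so the Fos probe sets disagreed. For Junb X54686cds_at the ZT12 minus ZT6 effect was -1.66 in pineal and 1.39 in retina, a difference of -3.05, while the other Junb probe set was higher at ZT12 in both tissues. The pineal ZT12 array enters the 3 ZT values, and its labels conflict on the hour.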

How the results depend on the processing

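Of the AP-1 family, 2 probe sets were called for ZT12 against ZT6. The count was 1 without the filter, with a filter at the 60th percentile and with the lens covariate, and 0 without the arrays numbered 3. It was 5 with array weights, where 279 of 5244 probe sets were called, and 4 with only the arrays compared, where 87 were called. When single arrays were left out it was 1 to 5, with the 5 without CT12 array 1, where 79 of 5244 were called. Fos X06769cds_g_at lost its call for ZT12 against ZT6 only without the arrays numbered 3 (2.01, limma adjusted p 0.0689). Its difference lay between 1.81 and 2.01 without single arrays. For CT12 against ZT12 the count of 1 became 3 with arrays scaled to a common median, where 73 of 5244 probe sets were called. With array weights it was 7, where 2568 of 5244 were called. It was 0 without the filter, with the lens covariate, with only the arrays compared or without the arrays numbered 3. Without single arrays it was 0 to 5, with the 5 without CT12 array 3, where 1072 of 5244 were called. In this comparison Fos X06769cds_g_at had -1.24 (limma adjusted p 0.0596) without the filter and -1.18 (0.0726) with the lens covariate. It had -1.27 (0.337) with only the arrays compared and -1.37 (0.0767) without the arrays numbered 3. Without single arrays it ranged from -1.37 to -1.09. For hour 12 against hour 6 the count of 1 became 6 with array weights, where 1432 of 5244 probe sets were called. It was 0 with the lens covariate (Fos 1.32, limma adjusted p 0.0569) or without the arrays numbered 3 (Fos 1.28, 0.144). Without single arrays it was 1 to 4, with Fos at 1.19 to 1.31, and the 4 came without CT12 array 1, where 68 of 5244 were called. With array weights the count of 0 became 5 for CT12 against CT6, for CT against ZT and for the interaction. Of 5244 probe sets, array weights called 2524, 1031 and 1370 in that order, against 2 without weights for CT12 against CT6. The estimation of the weights stopped before convergence. The interaction count was 0 to 1 without single arrays, with the 1 without CT12 array 3, where 63 of 5244 were called. Between tissues the count of 8 was 3 with the 60th percentile filter, which tests fewer probe sets, and 6 to 8 without single arrays. Fos X06769cds_g_at was -0.50 (adjusted p 0.102) with a common median, -0.61 (0.0634) with array weights and -0.24 (0.358) without the ZT12 condition, and ranged from -1.05 to -0.23 without single arrays, losing the call without the pineal ZT12 or CT12 array. The causes were not tested. No called value changed sign. With a replicate block for the number in the titles, the counts of family calls were the same. In that setting Fos X06769cds_g_at was 1.89 with a limma adjusted p of 0.00436. Of 18 same-numbered pairs of arrays, 5 deviated together (r over 0.1). Their r ran from -0.413 to 0.414 with a median of 0.013, beside a median of -0.028 for 36 pairs with different numbers. With 3 arrays per group this cannot settle whether the numbers pair the arrays. Over all probe sets the number called ranged from 0 to 279 for ZT12 against ZT6 (15 in the main setting), from 0 to 2568 for CT12 against ZT12 (32), from 0 to 1432 for hour (11), from 0 to 1031 for CT against ZT (0), from 1 to 1370 for the interaction (1), from 0 to 3 for CT6 against ZT6 (0) and from 2765 to 5338 for tissue (3977). Dim probe sets, 5 of 13 in the retina, limit what can be said of Fosl1 and Jund.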
